A study of Homo sapiens with 26 samples.

Results

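The tumors described here are ZR751 xenografts that had been kept on atirmociclib (PF-07220060), an oral inhibitor of the cell cycle kinase CDK4, for 84 to 91 days and are labelled resistant. ZR751 is an estrogen receptor positive human breast cancer cell line, and a xenograft is a human tumor grown in a mouse. The hosts were NSG mice, a strain without T, B and NK cells. There were 5 resistant mice, named 9-3, 9-6, 9-7, 9-8 and 9-9, and each tumor gave 2 RNA-seq libraries, A and B, so the resistant tumors hold 10 of the 26 libraries of the series. The other mice were 5 given vehicle for 3 days and 3 given atirmociclib for 3 days, and only the vehicle mice enter the comparisons. Oral doses of 60 mg/kg were given 2 times daily, 7 hours apart. All mice share labels of 150 mm3 for tumor volume at the start and of 3 hours after the last dose. The protocol in the labels places the long dosing in a study of its own, with no vehicle mice among these samples, although the batch label is 1 throughout, so study, length of dosing and resistance cannot be told apart wherever vehicle tumors are the reference. All tumors derive from 1 cell line, and the labels do not say whether A and B split at the level of tissue, RNA or library.

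Tumors that escape a CDK4 inhibitor can do so by more than a single route, because the kinase sits between growth signals and the retinoblastoma protein, which holds back the E2F transcription factors that start DNA replication. In estrogen receptor positive breast cancer the receptor drives CCND1, whose product cyclin D1 activates CDK4. Mitogen signals through ERK switch on immediate early genes within minutes, and interferon signals switch on antiviral genes. Each of these outputs can be read from sets of genes, which allows tumors under the same drug to be set beside each other.

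Genes were kept when their mean reached 5 TPM (transcript abundance scaled to a fixed library total) in at least 1 resistant mouse, which left 10979 genes. For each gene the spread of the 5 mouse means of log2(TPM + 1) was set against the A versus B spread within mice, by a moderated F test across all genes. A gene was called at a Benjamini-Hochberg adjusted p under 0.05. A stricter rule also asked that the highest mouse lie at least 1 log2 unit (2-fold on the TPM + 1 scale) above the lowest, and the distance between those mice is called the range below. A and B of a mouse share its tumor, so a call says that these 5 tumors differed by more than their paired libraries did.

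The 5 tumors differed in 4619 of the 10979 genes (42.1%), and 649 (5.91%) passed the stricter rule. The median gene had an SD of 0.14 log2 units between mouse means and of 0.10 between paired libraries. The between-mouse mean square (the variance of the mouse means times the 2 libraries per mouse) exceeded the library variance in 9541 genes (86.9%). That mean square also holds library variance, so exceeding it does not by itself show that the mice differed. With library variance taken off, the median share of variance lying between mice was 60.8%. Ranges of at least 2 log2 units were called for 87 genes. Another 71 genes had a range of at least 1 log2 unit without being called, because A and B of the same tumor also disagreed. The 10 genes with the largest disagreement between A and B included the replication-dependent histone genes HIST1H4J and HIST1H4K and PIGY, a subunit of glycolipid anchor synthesis, and none of the 10 was called.

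**Figure D1:**
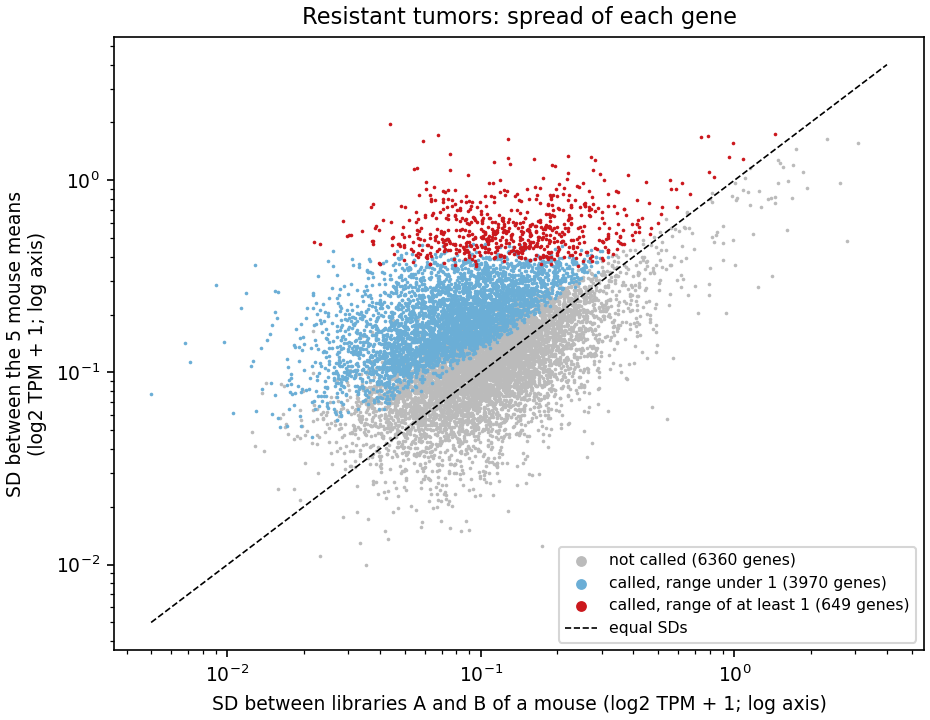
Each point is 1 of 10979 genes in the resistant tumors, with the SD between libraries A and B of a mouse on the horizontal axis and the SD between the 5 mouse means on the vertical axis (both log2 TPM + 1, log axes). The 649 genes called with a range of at least 1 log2 unit lie in the upper part, mostly above the line of equal SDs.

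Libraries A and B agreed least in mouse 9-8, with a median absolute difference of 0.15 log2 units over genes, against 0.077 to 0.081 in the other 4 mice. The TPM table gives no read counts, so depth per library is unknown. The labelled cell type was checked against its markers. All 10 luminal epithelial markers passed the filter, with a summed level of 12977 to 16739 TPM per resistant mouse. Markers of other cells stayed low: the 11 fibroblast markers summed to 4.82 to 10.6 TPM, of which COL1A1, a collagen gene, made up most, and 10 of the 11 were below 1 TPM in every resistant mouse. The 10 macrophage and myeloid markers summed to 10.5 TPM in mouse 9-7 and to 14.2 to 17.2 TPM in the other 4, with CD68, a lysosomal protein, the highest of them and AIF1, PTPRC and TYROBP at 0 in all resistant mice. Summed levels of the 9 endothelial markers (1.64 to 2.45 TPM), 8 lymphocyte markers (2.03 to 2.78 TPM) and 7 adipocyte markers (0.81 to 1.25 TPM) were lower still. The 7 skeletal muscle markers (0.31 to 0.63 TPM) and the 6 red blood cell markers (0.43 to 1.53 TPM) were also near 0. The 8 basal or myoepithelial markers summed to 8.885 to 12.7 TPM, and none passed the filter. ACTA2, an actin gene, was the highest of them (3.715 to 4.65 TPM), and 4 of the 8 were below 1 TPM in every resistant mouse. The stroma of a xenograft comes from the mouse, and the sources used here do not say how mouse reads were handled. In a bulk tumor, fewer cells of a kind and less RNA per cell cannot be told apart.

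The mice did not fall along a single line. Principal components of the mouse means held 42.0%, 26.1%, 18.3% and 13.6% of the variance. Mouse 9-7 lay at 1 end of the first component (score 22.5) and mice 9-9 (-16.7) and 9-8 (-12.4) at the other, while the second set mouse 9-6 (15.7) against 9-8 (-15.4). Among the 649 genes of the stricter rule, mouse 9-7 was highest for 262, 9-6 for 180, 9-9 for 122, 9-3 for 48 and 9-8 for 37. Mouse 9-8 was lowest for 222, 9-9 for 211, 9-7 for 110, 9-3 for 68 and 9-6 for 38. The most frequent pairs were 9-7 highest with 9-9 lowest (126 genes), 9-7 with 9-8 (103) and the reverse of the first, 9-9 highest with 9-7 lowest (87).

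The lists of genes used below were written with earlier results of these data known, and members below the filter are left out of their counts. A list score averages log2(TPM + 1) over the members that passed. Scores are described without a test, and no correlation between programs over 5 mice is given. Over all 10979 genes, mice 9-3, 9-6, 9-7, 9-8 and 9-9 were highest for 12.4%, 13.9%, 29.2%, 18.8% and 25.8%. In the same order they were lowest for 17.2%, 24.0%, 17.7%, 27.0% and 14.1%.

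**Figure D2:**
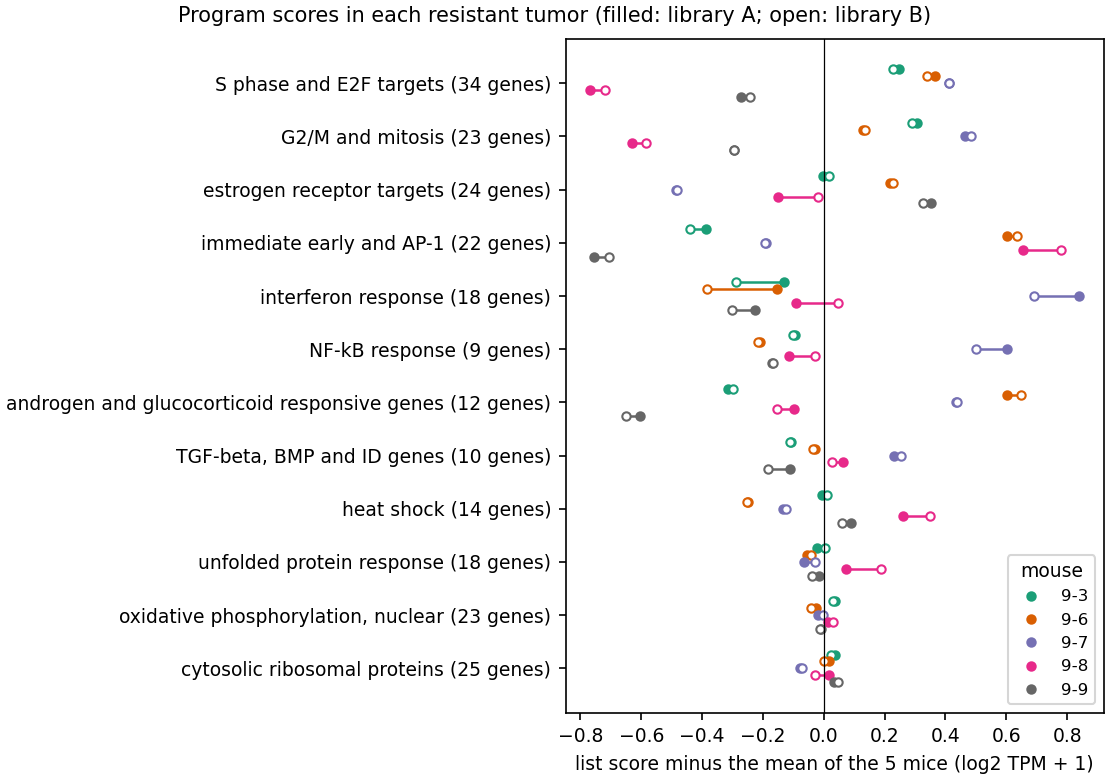
List scores in each resistant tumor, drawn as the difference from the mean of the 5 mice (log2 TPM + 1, horizontal axis) for 12 lists (vertical axis), with library A filled, library B open and 1 colour per mouse. Mouse 9-8 is lowest for both cell cycle lists, 9-7 is lowest for estrogen receptor targets and highest for the interferon and NF-kB lists, and 9-6 and 9-8 are highest for immediate early genes. The androgen and glucocorticoid list was put together after its values were seen.

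Cell cycle genes separated mouse 9-8, and to a lesser degree 9-9, from the other tumors. All 34 S phase and E2F targets that passed the filter (of 37 listed) were called, beside 42.1% of all genes, and 24 passed the stricter rule, beside 5.91%. Mouse 9-8 was lowest for 32 of the 34, and 9-9 for the other 2, which were CCNE1 and CCNE2, the genes of cyclin E. The score was 4.53 in mouse 9-3, 4.64 in 9-6, 4.70 in 9-7, 3.54 in 9-8 and 4.03 in 9-9. Of the 23 G2/M and mitosis genes that passed (of 32 listed), 21 were called and 16 passed the stricter rule. For 19 of the 23, mouse 9-7 was highest, and for 19 mouse 9-8 was lowest.

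RRM2, the small subunit of ribonucleotide reductase (GRCh38 chromosome 2, 10120698 to 10131419), had 31.0 TPM in mouse 9-3, 21.4 in 9-6, 23.4 in 9-7, 6.81 in 9-8 and 9.24 in 9-9, a range of 2.04 (SE 0.12, adjusted p = 3.7e-06). Mouse 9-8 was lowest and 9-9 next, and these mice did not overlap with the other 3. CDC45, a part of the replicative helicase, ranged from 13.9 TPM in 9-8 to 40.4 TPM in 9-3.

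MKI67, the gene of the dividing-cell antigen Ki-67, had 8.47 TPM in mouse 9-3, 7.68 in 9-6, 8.91 in 9-7, 2.36 in 9-8 and 3.79 in 9-9, a range of 1.58 log2 units (SE 0.18, adjusted p = 0.00028). All 5 values lay below those of the vehicle mice (36.2 to 58.2 TPM). CDK1, the kinase of mitosis, had 19.1, 14.4, 19.7, 5.47 and 9.96 TPM, a range of 1.68 (SE 0.12, adjusted p = 2.5e-05). KIF23, a kinesin of cell division, was highest in 9-7 (13.2 TPM) and low in both 9-8 (3.35 TPM) and 9-9 (2.92 TPM). AURKA, a spindle kinase, was even at 17.3 to 20.7 TPM and was not called (adjusted p = 0.29). CCNB1, the gene of cyclin B1, the partner of CDK1, was likewise not called, at 17.4 to 22.01 TPM. The G2/M score was 3.89, 3.73, 4.07, 2.98 and 3.30, against 5.60 to 6.18 in vehicle mice.

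The stricter counts of both cell cycle lists rested in large part on mouse 9-8. Without it, 30 of 34 S phase genes were still called and 9 passed the stricter rule, with a score range of 0.67 in place of 1.16. For the G2/M list, 21 of 23 were still called and 3 passed the stricter rule, with a score range of 0.77 in place of 1.083. Without mouse 9-7, 15 of 22 G2/M genes were called and 10 passed the stricter rule. Mouse 9-8 is also the tumor whose libraries A and B agreed least, and the part of that in these counts was not tested, but both of its libraries gave low scores (3.52 and 3.57 for S phase).

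E2F factors bind near the start of many S phase genes. Promoters from RefSeq (GRCh38.p14, 250 bases before to 50 after the start) were found for 28 of the 34 genes, and 15 of them (53.6%) held TTTCCCGC or TTTGGCGC on either strand, beside 2.3% of all 27305 promoters. The stretches below come from the 3 called genes with the largest range whose upstream part holds a match, with matches in capitals. MCM6 and E2F1 hold TTTGGCGC, UHRF1 holds the other motif on the opposite strand, and all 3 genes were highest in mouse 9-7 and lowest in 9-8. They are MCM6, a subunit of the replicative helicase (chr2:135876486-135876635, minus strand), E2F1, an E2F factor itself (chr20:33686386-33686445, minus strand) and UHRF1, a maintenance factor of DNA methylation (chr19:4909447-4909500, plus strand).
MCM6: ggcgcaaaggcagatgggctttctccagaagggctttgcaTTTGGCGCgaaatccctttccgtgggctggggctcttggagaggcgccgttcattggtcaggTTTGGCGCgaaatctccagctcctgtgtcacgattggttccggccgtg
E2F1: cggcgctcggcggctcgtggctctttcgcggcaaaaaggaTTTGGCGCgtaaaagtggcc
UHRF1: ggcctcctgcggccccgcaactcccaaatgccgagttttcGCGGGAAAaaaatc
MCM6 had 23.9 TPM in mouse 9-3, 29.4 in 9-6, 32.5 in 9-7, 10.4 in 9-8 and 15.1 in 9-9. E2F1 had 57.1, 70.9, 85.3, 28.6 and 41.2 TPM, and UHRF1 7.53, 10.3, 13.2, 3.83 and 6.21 TPM, so all 3 gave the same order of the mice. A letter match describes the sequence and does not show that a factor bound there.

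Estrogen receptor targets ordered the tumors in another way. Of 25 listed, 24 passed the filter, 22 were called (beside 42.1% of all genes) and 13 passed the stricter rule (beside 5.91%). Mouse 9-9 was highest for 14 of the 24 and mouse 9-7 lowest for 13. The score was 7.496 in mouse 9-3, 7.71 in 9-6, 7.01 in 9-7, 7.404 in 9-8 and 7.83 in 9-9, all above the 5.49 to 6.25 of the vehicle mice. Without mouse 9-7 the stricter count fell to 8 and the score range from 0.82 to 0.43.

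PDZK1, a scaffold protein and well known receptor target (GRCh38 chromosome 1, 145670852 to 145708148), had 331 TPM in mouse 9-3, 540 in 9-6, 182 in 9-7, 296 in 9-8 and 685 in 9-9. The libraries of no mouse overlapped with those of another, and the range was 1.9 log2 units (SE 0.04, adjusted p = 2.2e-08). RET, a receptor tyrosine kinase, had 11.9, 15.4, 6.495, 11.5 and 29.1 TPM, a range of 2.01 (SE 0.10, adjusted p = 3.3e-06). IGFBP4, which binds insulin-like growth factors, had 315, 332, 134, 203 and 475 TPM, a range of 1.82 (SE 0.07, adjusted p = 6.1e-07). In each of these 3 genes 9-9 was above and 9-7 below the other 3 mice.

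PGR, the progesterone receptor gene, had 125 TPM in mouse 9-3, 100 in 9-6, 56.7 in 9-7, 92.0 in 9-8 and 144 in 9-9 (range 1.33, SE 0.09, adjusted p = 2.3e-05). CXCL12, a chemokine, ran from 5.68 TPM in 9-7 to 30.8 TPM in 9-9. CTSD, the lysosomal protease cathepsin D, stood at 3469 TPM in 9-9 and at 1429 to 2118 TPM in the other 4, lowest in 9-8 rather than 9-7. TFF1, a trefoil peptide, had 14888 TPM in 9-3 and 7699 TPM in 9-7. The receptor gene itself, ESR1, had 92.1, 84.2, 79.9, 107 and 130 TPM, with 9-9 above and 9-7 below all other libraries (range 0.70, SE 0.08, adjusted p = 0.00059). XBP1 and IRS1 were the members that were not called.

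Some other genes, named here for that pattern, were also highest in 9-9 and lowest in 9-7. They do not stand for secreted proteins at large: of the 19 mucin, trefoil and secretory genes that passed (of 23 listed), 9-9 was highest for 5 and lowest for 6, and their score was highest in 9-6. SERPINA6, the carrier of cortisol in blood, had 32.9 TPM in mouse 9-3, 48.9 in 9-6, 9.13 in 9-7, 17.3 in 9-8 and 85.3 in 9-9, against 0.34 to 2.71 TPM in vehicle mice (range 3.10, SE 0.11, adjusted p = 3.9e-07). SERPINA1, the gene of alpha-1 antitrypsin, had 388, 469, 164, 307 and 624 TPM (range 1.92, SE 0.04, adjusted p = 2.3e-08). TFF2, another trefoil peptide, ran from 11.4 TPM in 9-7 to 53.3 TPM in 9-9. CLDN2, a claudin of tight junctions, ran from 2.70 TPM in 9-7 to 17.0 TPM in 9-9. SYT8, a synaptotagmin, had 43.5, 40.8, 23.9, 30.7 and 106 TPM. FGFR2, a fibroblast growth factor receptor, was also highest in 9-9, at 29.8 TPM against 11.2 to 17.8 TPM, and lost its call without that mouse (adjusted p = 0.063). Searched in the same way, none of the 16 promoters found for the listed receptor targets held the palindromic estrogen response element (GGTCA, any 3 bases, TGACC), which 18 of all promoters (0.1%) held.

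Immediate early genes had the widest ranges of any list with at least 3 members, with a median of 1.52 log2 units against 0.34 for all genes. All 22 listed genes passed the filter, 21 were called and 16 passed the stricter rule, beside 42.1% and 5.91% of all genes. JUND was the member that was not called. The score was 4.69 in mouse 9-3, 5.72 in 9-6, 4.91 in 9-7, 5.82 in 9-8 and 4.37 in 9-9, while the 5 vehicle mice lay between 3.70 and 3.77. Mouse 9-6 was highest for 10 of the 22 genes and mouse 9-8 for 9, and mouse 9-9 was lowest for 14. Leaving out any 1 mouse left 13 to 16 genes past the stricter rule.

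FOSB, a subunit of the AP-1 transcription factor (GRCh38 chromosome 19, 45467995 to 45475179), had the largest range of all called genes, 4.81 log2 units (SE 0.07, adjusted p = 4.6e-10). Its libraries A and B read 16.1 and 15.8 TPM in mouse 9-3, 100.2 and 104.7 in 9-6, 23.1 and 21.4 in 9-7, 227 and 235 in 9-8, and 7.33 and 7.19 in 9-9. Paired libraries were thus close while the tumors did not overlap. NR4A1, an orphan nuclear receptor induced by growth signals, had 44.3, 152, 88.3, 372 and 20.1 TPM (range 4.15, SE 0.06, adjusted p = 1.3e-09). ATF3, a stress-induced factor of the same family of dimers, had 12.8, 19.9, 21.8, 62.3 and 4.83 TPM (range 3.45, SE 0.11, adjusted p = 2.6e-07).

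The 2 high tumors did not rank alike for every member. EGR1, a zinc finger factor, had 19.98 TPM in mouse 9-3, 92.5 in 9-6, 19.8 in 9-7, 74.8 in 9-8 and 8.82 in 9-9. FOS, the founding AP-1 subunit, had 20.9, 132, 21.1, 85.5 and 18.7 TPM. Both were thus highest in 9-6, whereas FOSB, NR4A1, ATF3 and NR4A3 (10.98 TPM in 9-8 against 0.27 to 1.69 TPM) were highest in 9-8. NR4A3 passed the filter through 9-8 alone and so had to be highest there. It counts among the genes given above as highest in 9-8. JUN and JUNB, partners of FOS in AP-1, were highest in 9-8 (30.8 TPM) and 9-6 (93.4 TPM), and both were lowest in 9-9. MYC, also on the list, went another way, at 175 to 209 TPM in 4 mice and 232 TPM in 9-9.

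Feedback genes of the ERK pathway and ligands of ERBB receptors, which share inputs with the immediate early genes, had a lower spread. Of the 10 that passed (of 22 listed), 8 were called and 4 passed the stricter rule, beside 42.1% and 5.91% of all genes. Mouse 9-9 was lowest for 8. The stricter count was 1 without 9-6 and 2 without 9-8 or without 9-9. SPRED2, an inhibitor of RAS signals to ERK, had 16.5 TPM in mouse 9-3, 31.7 in 9-6, 27.0 in 9-7, 14.8 in 9-8 and 14.7 in 9-9. DUSP6, an ERK phosphatase, had 2.90, 4.98, 3.13, 5.01 and 1.88 TPM (range 1.07, SE 0.19, adjusted p = 0.0052). TGFA, a ligand of the EGF receptor, was highest in 9-6 (20.3 TPM) and lowest in 9-8 (7.13 TPM).

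Serum response factor binds the CArG box, and 1 of the 17 promoters found for this list (5.9%) held that motif within the window, beside 1.3% of all promoters. It was EGR1, printed here with the matches in capitals because it holds 2 of them (chr5:138465334-138465445, plus strand).
EGR1: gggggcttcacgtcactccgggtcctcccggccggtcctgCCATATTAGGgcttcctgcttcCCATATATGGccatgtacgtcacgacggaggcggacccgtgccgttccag
The cyclic AMP response element TGACGTCA, searched on both strands, was held by 2 of the 17, DUSP1 and JUND, beside 2.0% of all promoters. DUSP1, a phosphatase that turns off ERK and its relatives, had 11.3 TPM in 9-3, 46.3 in 9-6, 16.8 in 9-7, 32.5 in 9-8 and 8.95 in 9-9.

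**Figure D3:**
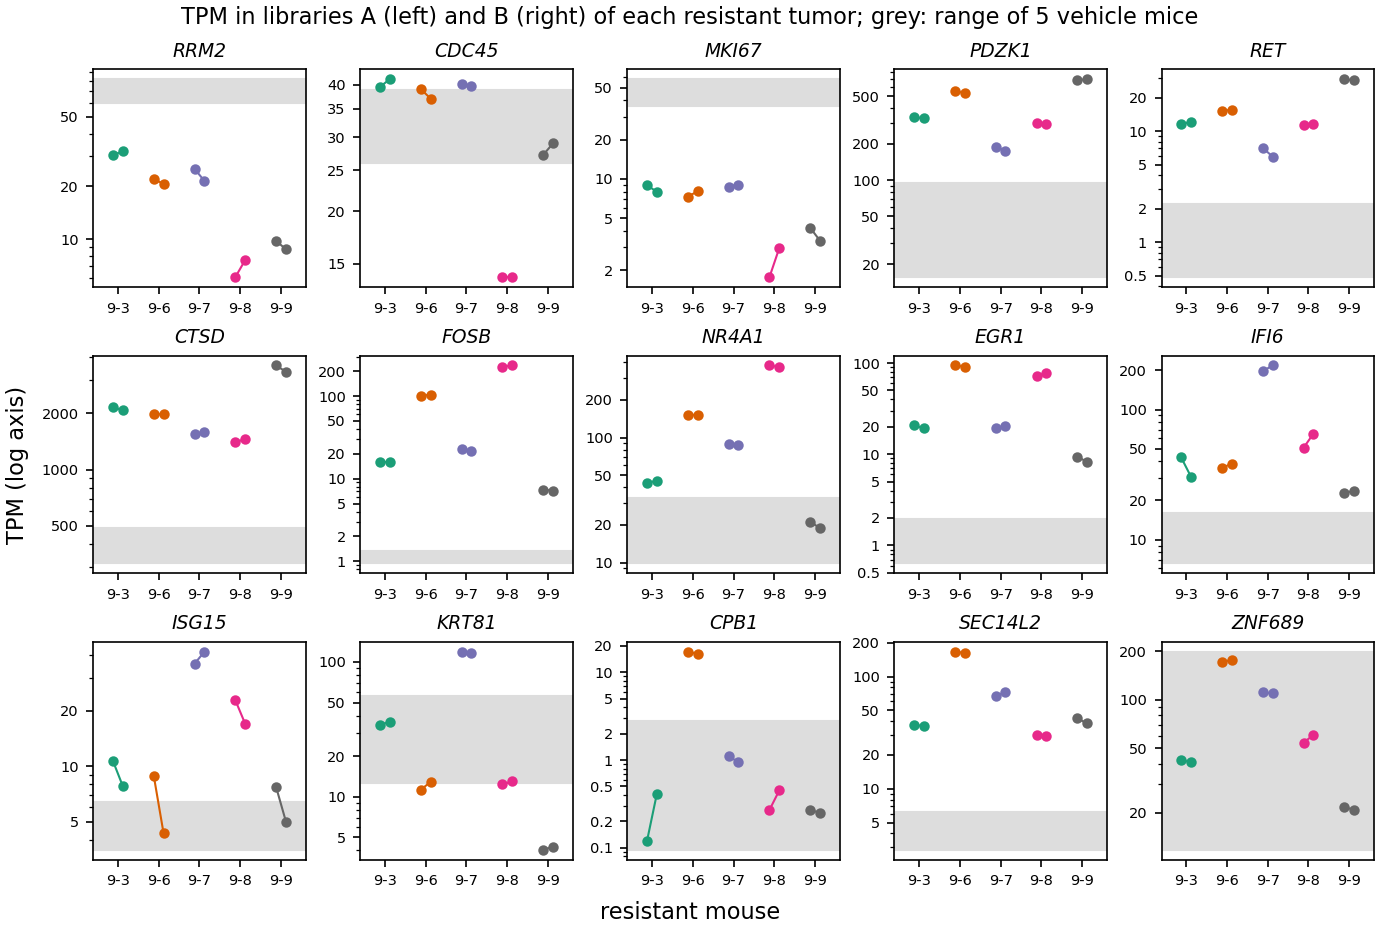
TPM (vertical, log axis) of 15 genes in libraries A and B of each resistant mouse (horizontal), with the range of the 5 vehicle mice in grey. RRM2 and CDC45 are lowest in 9-8, PDZK1 and RET run from 9-7 up to 9-9, FOSB runs from 7.26 TPM in 9-9 to 231 TPM in 9-8, and IFI6 and KRT81 are highest in 9-7.

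Interferon responsive genes stood apart in a single tumor. Of 32 listed, 18 passed the filter, 16 were called and 7 passed the stricter rule, beside 42.1% and 5.91% of all genes. Mouse 9-7 was highest for 15 of the 18. The score was 3.63 in mouse 9-3, 3.57 in 9-6, 4.61 in 9-7, 3.82 in 9-8 and 3.58 in 9-9, with vehicle mice at 3.29 to 3.63. Without mouse 9-7, 15 genes passed the filter, 6 were called, 2 passed the stricter rule and the score range was 0.23 in place of 1.03. Of these 18 genes, 3 passed the filter through 9-7 alone and so had to be highest there. Over all 10979 genes, 9-7 was highest for 29.2%. Markers of other cells had low sums in 9-7 and no common direction. The fibroblast sum was highest there (10.6 TPM), but most of it was COL1A1 (9.75 TPM). The endothelial sum (2.45 TPM against 2.33 TPM in 9-8) and the lymphocyte sum (2.025 TPM against 2.035 TPM in 9-6) hardly differed from the next mouse. The macrophage sum was lowest in 9-7 (10.5 TPM). The low macrophage sum came mainly from CD68 (3.77 TPM against 8.31 to 10.2 TPM), while ITGAM, an integrin of myeloid cells, was highest in 9-7 (2.33 TPM against 0.31 to 1.26 TPM). The part of other cells in the interferon list was not tested.

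IFI6, an interferon-induced membrane protein (GRCh38 chromosome 1, 27666061 to 27672218), had 36.7 TPM in mouse 9-3, 36.9 in 9-6, 208 in 9-7, 57.9 in 9-8 and 23.3 in 9-9 (range 3.10, SE 0.15, adjusted p = 2.6e-06). ISG15, a ubiquitin-like modifier, had 9.26, 6.62, 38.8, 19.9 and 6.35 TPM (range 2.46, SE 0.28, adjusted p = 0.00035). IFIT1, which binds viral RNA, had 2.17, 1.1, 14.2, 4.73 and 1.98 TPM (range 2.86, SE 0.25, adjusted p = 0.00010). In all 3 genes both libraries of 9-7 lay above every other library, and mouse 9-8 came next. MX1, an antiviral GTPase, had 6.93 TPM in 9-7 and 0.63 to 2.00 TPM elsewhere. IRF9, a transcription factor of the interferon pathway, ran from 0.45 TPM in 9-3, where library B was at 0, to 9.07 TPM in 9-7 (range 2.80, SE 0.61, adjusted p = 0.032), and was not called without 9-3 (adjusted p = 0.32) or without 9-7 (adjusted p = 0.085). Its call was also lost with a pseudocount of 5, with no filter, with robust eBayes and with eBayes without trend (adjusted p = 0.050 to 0.11). B2M, which encodes the light chain of class I molecules, was called, with 502 TPM in 9-7 against 353 to 384 TPM, but not without mouse 9-7 (adjusted p = 0.22).

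The interferon-stimulated response element is the sequence that interferon-activated factors read. Of the 14 promoters found for these genes, 10 (71.4%) held its core (GAAA, any 2 bases, GAAA) on either strand, beside 3.6% of all promoters. The 3 called genes with the largest range and a match upstream are shown, with matches in capitals: IFI6 (chr1:27672236-27672388, minus strand), IFIT1 (chr10:89392467-89392569, plus strand) and ISG15 (chr1:1013344-1013439, plus strand, where 2 matches overlap).
IFI6: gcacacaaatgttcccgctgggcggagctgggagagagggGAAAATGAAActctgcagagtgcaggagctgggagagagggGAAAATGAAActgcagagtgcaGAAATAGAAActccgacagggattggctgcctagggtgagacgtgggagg
IFIT1: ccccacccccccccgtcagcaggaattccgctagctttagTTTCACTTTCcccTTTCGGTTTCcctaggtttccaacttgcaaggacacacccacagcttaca
ISG15: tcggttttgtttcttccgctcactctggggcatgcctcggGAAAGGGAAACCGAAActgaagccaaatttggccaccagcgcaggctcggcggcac
In IFI6 there were 3 matches, at 156 to 93 bases before the start, and in IFIT1 and ISG15 there were 2 each.

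Mouse 9-7 stood out in other groups as well, with both of its libraries above the 8 others for 1224 called genes and below them for 498. In the other mice the corresponding counts were 245 to 600 above and 357 to 700 below. Of the 9 NF-kB response genes that passed the filter (of 21 listed), 8 were called and 3 passed the stricter rule, beside 42.1% and 5.91% of all genes. Mouse 9-7 was highest for 6 of the 9, beside 29.2% of all genes. S100A9, a calcium-binding protein of inflammation, had 30.0 TPM in 9-7 and 5.80 to 7.39 TPM in the other 4, and its partner S100A8 had 8.96 TPM against 1.95 to 2.50 TPM. The call of S100A9 was lost without 9-7 (adjusted p = 0.47), that of TNFAIP2 likewise (17.4 TPM in 9-7 against 5.95 to 8.36 TPM, adjusted p = 0.16). Without that mouse no member passed the stricter rule. S100A8 passed the filter through 9-7 alone and so had to be highest in that mouse.

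Some keratin and lipid genes were also highest there. Of the 10 keratin and squamous genes that passed (of 26 listed), 8 were called, beside 42.1% of all genes. The highest mouse was 9-7 for 5, 9-8 for 3 and 9-9 for 2, beside 29.2%, 18.8% and 25.8% of all genes. Without 9-7, 9 of the 10 passed the filter. KRT81, a hair keratin (GRCh38 chromosome 12, 52285913 to 52291534), had 35.1 TPM in mouse 9-3, 12.1 in 9-6, 118 in 9-7, 12.7 in 9-8 and 4.16 in 9-9 (range 4.52, SE 0.08, adjusted p = 7.1e-09). Hair keratin genes are close relatives, so reads could have been split between them. KRT80 ran from 7.47 TPM in 9-6 to 33.4 TPM in 9-7. FADS2 and FADS1, desaturases of polyunsaturated fatty acids, had 151 and 11.5 TPM in 9-7 against 43.1 to 70.7 and 1.72 to 3.81 TPM. FADS1 passed the filter through 9-7 alone and so had to be highest in that mouse. Of the 20 cholesterol synthesis genes that passed, 13 were called, beside 42.1% of all genes, and 11 were highest in 9-7, beside 29.2% of all genes. Without 9-7, 8 were called. Ribosomal proteins were lowest there in 21 of 25 genes, though by little, as given below.

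Mouse 9-6 was marked by other genes. CPB1, a carboxypeptidase of the pancreas, had 0.27 TPM in mouse 9-3, 16.7 in 9-6, 1.02 in 9-7, 0.36 in 9-8 and 0.26 in 9-9 (range 3.81, SE 0.24, adjusted p = 7.2e-06), and was below the filter without 9-6. TUBA3D and TUBA3E, nearly identical alpha-tubulin genes that reads may not separate, had 53.2 and 32.6 TPM in 9-6 against 9.00 to 13.0 and 6.17 to 8.17 TPM, and the call of TUBA3E was lost without 9-6 (adjusted p = 0.29). LEF1, a Wnt pathway factor, had 24.1, 55.2, 34.1, 28.9 and 29.5 TPM. ID1 and ID3, targets of BMP signals, were highest in 9-6 (91.5 and 146 TPM) and lowest in 9-3 (36.7 and 67.3 TPM). They do not stand for their list. Of the 10 TGF-beta, BMP and ID genes that passed (of 19 listed), 9-6 was highest for 3 and lowest for 3. Over all genes 9-6 was highest for 13.9% and lowest for 24.0%. The score of that list was highest in 9-7 (4.98 against 4.71 in 9-6). SLC16A3, a lactate exporter, was lowest in 9-6 (11.9 TPM against 19.7 to 29.7 TPM).

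Genes that answer to androgen or glucocorticoid receptors formed a list that was put together after their values were seen. Its counts and scores depend on that choice and are given as a description only. Of 22 listed, 12 passed, all 12 were called (beside 42.1% of all genes) and 6 passed the stricter rule (beside 5.91%). Mouse 9-6 was highest for 6 and 9-9 lowest for 6. The score was 5.41 in mouse 9-3, 6.35 in 9-6, 6.16 in 9-7, 5.60 in 9-8 and 5.09 in 9-9, with vehicle mice at 4.08 to 5.64. SEC14L2, a lipid-binding protein, had 36.6, 164, 70.1, 30.0 and 40.3 TPM, against 2.86 to 6.17 TPM in vehicle mice (range 2.42, SE 0.07, adjusted p = 8.1e-08). ALOX15B, a lipoxygenase, had 2.78 TPM in 9-9 and 13.7 to 27.1 TPM in the other 4. CLDN8, a claudin, ran from 1.79 TPM in 9-9 to 12.9 TPM in 9-6. PER1, a clock gene, followed another order, highest in 9-8 (28.5 TPM) and lowest in 9-9 (4.20 TPM). ZNF689, a zinc finger gene on no list, had 41.8, 174, 110, 57.4 and 21.3 TPM, and vehicle mice spanned 11.8 to 198 TPM.

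Mouse 9-8 was highest for 7 of 14 heat shock and 13 of 18 unfolded protein response genes, beside 18.8% of all genes. Of 14 heat shock genes that passed (of 15 listed), 13 were called and 4 passed the stricter rule (2 without 9-8), beside 42.1% and 5.91% of all genes. Their scores were 7.56, 7.30, 7.43, 7.86 and 7.63. HSPA1A and HSPA1B, near-identical genes of the inducible chaperone HSP70, had 282 and 146 TPM in 9-8 against 135 to 233 and 59.8 to 102 TPM. HSPA6, a stress-only relative, had 5.16, 2.00, 5.99, 12.2 and 2.05 TPM (range 2.15, SE 0.17, adjusted p = 3.8e-05). The unfolded protein response list moved by far less. All 18 of its genes passed, 10 were called (55.6%, beside 42.1% of all genes) and none passed the stricter rule, and the score was 7.05 in 9-8 and 6.87 to 6.91 in the other 4. HSPA5, the chaperone of the endoplasmic reticulum, had 285, 270, 260, 330 and 285 TPM (range 0.34, SE 0.04, adjusted p = 0.0010).

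Both lists have a textbook promoter motif. The heat shock element (GAA, TTC and GAA, each 2 bases apart) was held by 4 of 14 promoters (28.6%, beside 0.5% of all), and the endoplasmic reticulum stress element (CCAAT, any 9 bases, CCACG) by 5 of 18 (27.8%, beside 0.1%), on either strand. For each list the called gene of largest range with a match is shown, matches in capitals: HSPA6 (chr1:161524426-161524518, plus strand) and HSPA5 (chr9:125241351-125241449, minus strand).
HSPA6: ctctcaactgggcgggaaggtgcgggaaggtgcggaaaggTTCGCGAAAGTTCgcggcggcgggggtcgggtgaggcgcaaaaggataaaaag
HSPA5: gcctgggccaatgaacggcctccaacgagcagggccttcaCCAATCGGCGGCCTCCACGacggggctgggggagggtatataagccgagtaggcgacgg
The matched genes of a list did not all share a high mouse: HSPA8, the constitutive form of HSP70, holds 2 heat shock elements upstream and was highest in 9-9 (1757 TPM).

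Genes proposed in the field as routes past CDK4/6 inhibition varied in 15 of the 27 that passed the filter (of 32 listed), or 55.6% beside 42.1% of all genes. The stricter rule was passed by 4, and by 2 without mouse 9-9. CDK4, the target of the drug, had 261, 259, 258, 239 and 258 TPM and was not called (adjusted p = 0.13). CCND1, the gene of cyclin D1, had 901, 543, 705, 715 and 771 TPM, with 9-3 above and 9-6 below all other libraries (range 0.73, SE 0.06, adjusted p = 0.00012). CCNE2 had 2.84, 5.74, 4.00, 1.54 and 1.51 TPM, highest in 9-6 (range 1.43, SE 0.18, adjusted p = 0.00074). It passed the filter through 9-6 alone and so had to be highest there. CCNE1 was lowest in 9-9 (2.46 TPM against 4.75 to 6.88 TPM), but not called without that mouse (adjusted p = 0.22).

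CDKN2A, the gene of p16, was highest in 9-3 (10.8 TPM against 4.22 to 7.01 TPM) and lost its call without 9-3 (adjusted p = 0.27). RB1, the retinoblastoma gene, was lowest in 9-8 (18.6 TPM against 23.0 to 25 TPM) and lost its call without 9-8 (adjusted p = 0.59). ERBB2, a receptor kinase, had 187, 194, 278, 206 and 167 TPM, highest in 9-7 (range 0.73, SE 0.04, adjusted p = 1.1e-05). MDM2, the inhibitor of p53, was highest in 9-6 (177 TPM against 98.1 to 143 TPM). PIK3CA, a kinase of growth factor pathways, was even over the 5 tumors (6.81 to 8.18 TPM) and was not called (adjusted p = 0.55). The members of this list were thus not highest in a common mouse: 9-3, 9-6, 9-7, 9-8 and 9-9 were highest for 6, 7, 7, 1 and 6 of the 27. These counts include CCNE2 and CDKN2C, which passed the filter through 9-6 alone and through 9-7 alone (5.39 TPM).

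Mouse 9-3 had the fewest called genes beyond the other libraries. MUC5AC, a secreted mucin, had 21.7 TPM in mouse 9-3, 8.97 in 9-6, 5.86 in 9-7, 8.26 in 9-8 and 4.59 in 9-9 (range 2.02, SE 0.11, adjusted p = 5.3e-06). IRS2, an adaptor of the insulin receptor, was lowest in 9-3 at 5.45 TPM against 9.09 to 18.4 TPM, and HES1, a Notch target, was lowest there too at 43.4 TPM against 54.9 to 81.7 TPM.

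Housekeeping programs varied least. The 25 cytosolic ribosomal protein genes had a median between-mouse SD of 0.058 log2 units, the 20 proteasome subunits 0.072 and the 23 nuclear oxidative phosphorylation genes 0.074, against 0.14 for all genes. None of these genes passed the stricter rule, beside 5.91% of all genes. Called were 15, 6 and 7 of them (60%, 30% and 30.4%), beside 42.1% of all genes. Without 9-7, 4 ribosomal protein and 1 proteasome gene were called. Without 9-9, 2 proteasome genes were called. Without 9-3, 3 oxidative phosphorylation genes were called, and 4 without 9-7. RPL7 had 4114, 3979, 3569, 3887 and 4075 TPM, which shows the size of the drop in mouse 9-7 (range 0.20, SE 0.03, adjusted p = 0.0018), a call that was lost without that mouse (adjusted p = 0.20).

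The same test was run in the 5 vehicle tumors to show how far untreated tumors of this line differ. There 6934 of 11191 genes (62%) were called and 894 (7.99%) passed the stricter rule, and the median between-mouse SD was 0.17 log2 units. Genes past the stricter rule in both groups numbered 206, which is 31.7% of the resistant list and 23.0% of the vehicle list. Of the 10607 genes that passed the filter in both groups, 7.04% passed the stricter rule in vehicle tumors. Without vehicle mouse 1-5 the vehicle count was 308, and without resistant mouse 9-7 the resistant count was 409.

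The difference in spread itself was tested with limma on the absolute deviations from each group's mean over 11563 genes. At an adjusted p under 0.05, 0 genes (0%) had a higher and 0 (0%) a lower spread in the resistant tumors (smallest adjusted p = 0.11). At an unadjusted p under 0.05, 445 genes were higher and 880 lower. The SD was larger in resistant tumors for 4527 genes (39.2%). A p that misses the threshold does not show that the spreads were equal.

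The lists nevertheless differed in where their spread lay, given here as a description. Both SDs are over the members that passed the filter in resistant tumors, while the counts use the filter of each group. The S phase list had a median SD of 0.53 log2 units between resistant and 0.21 between vehicle tumors, and 24 of 34 against 0 of 37 genes passed the stricter rule. For G2/M genes the SDs were 0.47 and 0.24, with 16 of 23 against 1 of 32 genes. Immediate early genes had 0.59 and 0.31, with 16 of 22 against 7 of 16 genes. Their vehicle SD thus includes members too low for the vehicle filter, on a scale that understates changes of low genes. The reverse held for mucins, trefoils and secretory genes (0.32 and 0.77, with 6 of 19 against 13 of 15 genes) and for the unfolded protein response (0.11 and 0.27, with 0 and 2 of 18 genes).

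**Figure D4:**
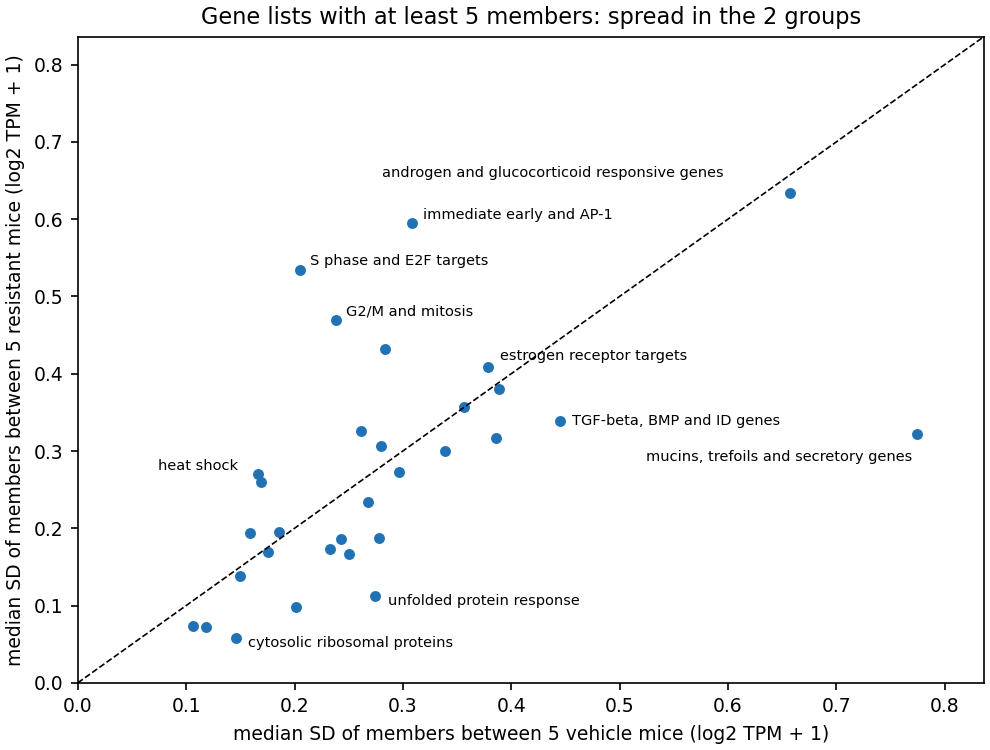
Each point is a list with at least 5 members that passed the filter in resistant tumors. The axes give the median SD of those members between the 5 vehicle mice (horizontal) and between the 5 resistant mice (vertical). Both are in log2 TPM + 1, and the dashed line marks equal SDs. S phase (0.53 against 0.21), G2/M and immediate early genes lie above the line, and mucins, trefoils and secretory genes (0.32 against 0.77) lie below it. The androgen and glucocorticoid list was put together after its values were seen.

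Genes were also set in chromosome order, which the choice of genes did not use, with positions from GENCODE 29 on GRCh38 for 10440 genes (95.1%). In windows of 40 neighbouring genes, none of 963 windows in any resistant mouse had a median deviation from the 5-mouse median past 0.3 log2 units. The largest, 0.24, was in mouse 9-7 on chromosome 19, 1490747 to 3574290, with 38 of 40 genes on the same side. Among vehicle mice, 3 windows in mouse 1-5 and 1 in 1-6 passed 0.3.

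The windows near that largest value led, after the values were seen, to a closer look at chromosome 19. Below 18 Mb, 279 of the 306 genes (91.2%) were higher in mouse 9-7 than the mean of the other 4 mice, beside 57.2% of all genes. The median difference below 18 Mb was 0.23 log2 units. It was 0.23 in libraries A and in libraries B taken alone, and 0.19 after median-of-ratios scaling. Over all 10979 genes the median difference of 9-7 was 0.03. In each 3 Mb bin below 18 Mb the median lay between 0.20 and 0.27, and in the bin from 18 to 21 Mb, with 43 genes, it was -0.02. Further along, the 6 bins between 21 and 42 Mb that held tested genes had medians of 0.06 to 0.18, and those beyond 42 Mb lay below 0. The other 4 mice had medians of -0.09 to -0.03 over the same 306 genes. Each of them was set against a mean that includes 9-7, which by itself lowers these medians. UHRF1, JUNB and BST2, members of lists above, lie in this stretch, while FOSB lies on the same chromosome outside it.

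**Figure D5:**
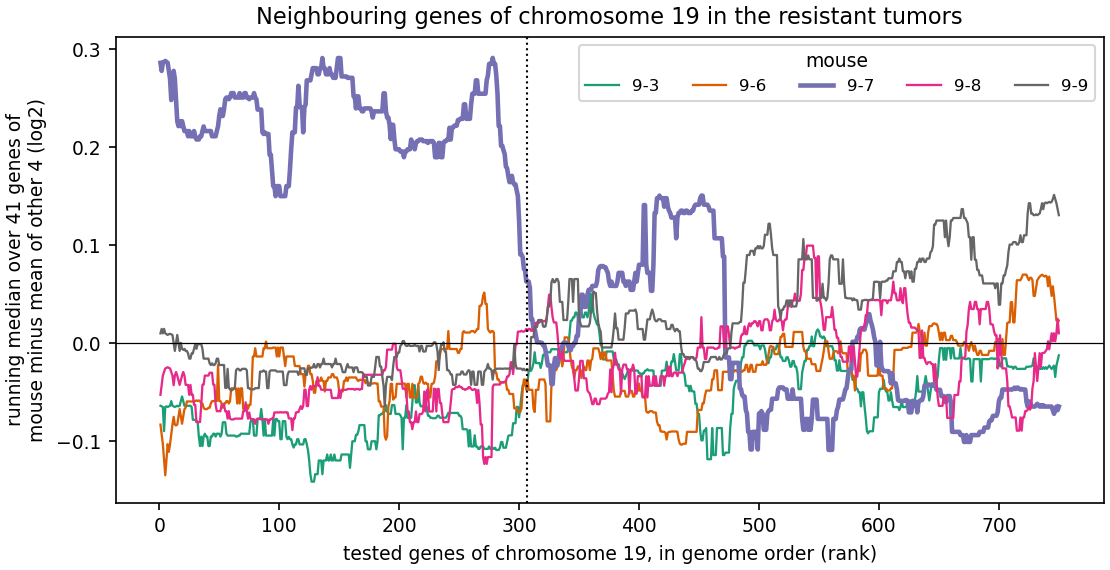
The running median over 41 genes of the difference between a mouse and the mean of the other 4 resistant mice (log2, vertical) is drawn along the tested genes of chromosome 19 in genome order (rank, horizontal), 1 line per mouse, with a dotted line at 18 Mb. Mouse 9-7 lies near 0.2 log2 units before the dotted line (median 0.23 over 306 genes) and drops to about 0 at it, then is above 0 again over a stretch at a lower level. The other mice lie below 9-7 before the dotted line (medians -0.09 to -0.03, each against a mean that includes 9-7).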

How the data were processed

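RNA-seq of ZR751 xenograft tumors was analysed from the TPM table that the authors deposited, in which all libraries sum to nearly the same total. FastQC, STAR, RSEM and HTSeq, and the builds GRCh38 and GRCm38, are listed in the submitters' processing notes without versions or roles. TPM hold no read depth, so counting error is unknown, and a gene's TPM also moves with the rest of its library. The table has 30332 entries, and 1 without a gene name (1.49 to 5.51 TPM) was dropped. Of 23 names that are bare numbers, 14 were tested.

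Values were taken as log2(TPM + 1), a scale that understates changes of low genes. Genes with a mean of at least 5 TPM in any mouse of the fit were tested with limma 3.58.1 (R 4.3.3), with 1 coefficient per mouse, a moderated F test with a mean-variance trend and Benjamini-Hochberg adjustment over all genes. The SE is that of a single library after moderation. P-values of the F test set the spread between mice against that between paired libraries, which may be technical. The difference in spread between groups was tested by limma on absolute deviations of mouse means. The scripts were tested on simulated data.

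The members and gene lists were chosen with earlier results of these data known. Genes to name were listed by a rule: resistance candidates, the largest ranges, genes that set a mouse apart, the widest called members of each list and the largest disagreement of A and B. Genes outside it, such as JUNB, HSPA8 and TFF1, were chosen after their values were seen. Alternatives covered pseudocounts, filters, scaling, the range rule, single libraries and leaving out each mouse. Promoter sequences are from RefSeq. Some genes are not reported here.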

Additional observations from a re-analysis of the deposited data

Results flagged for a closer look

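In a group of 5 mice, the gap between the highest or lowest mouse and its nearest neighbour was divided by the range and compared with the 95% critical value of Dixon's test, 0.71. For groups chosen without regard to their values, chance gives about 1 such value in 20, and 3 of 31 list scores passed it. The lists were written with earlier results known, and 1 of the 31 after its values were seen. Of the named genes 9 of 91 passed it, but some were named for their gap to the nearest mouse. The rate of 1 in 20 therefore does not apply to the named genes or to the list scores. Without 9-7, 15 of the 18 interferon genes and 8 of the 9 NF-kB genes passed the filter. The others entered through 9-7 alone, which sets that mouse apart. Genes of a list move together, so these are not separate counts.

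Among list scores, mouse 9-7 stood apart for the interferon response (0.761) and the NF-kB response (0.816), and mouse 9-8 for the unfolded protein response (0.781). Among genes, mouse 9-7 stood apart for S100A8 (0.874), S100A9 (0.861), CD68 (0.793, where it was lowest) and B2M (0.762). Mouse 9-6 stood apart for TUBA3E (0.842), CPB1 (0.82) and TUBA3D (0.803). Mouse 9-8 was the lowest for CDK4 (0.861) and RB1 (0.719), and CDK4 was not called by the test over mice.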

How the results depend on the processing

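The stricter count in resistant tumors was 297 with a pseudocount of 5 and 216 with a range rule of 1.5 log2 units, and leaving out a mouse gave 409 to 598. The called count was 2781 to 5171 when a mouse was left out, lowest without 9-7. In vehicle tumors the stricter count was 465 and 331 under the first 2 settings and 308 to 873 without a mouse, lowest without 1-5. With library letter as a replicate block, 4426 genes were called in resistant and 6475 in vehicle tumors, with stricter counts of 649 and 894; the letter is only a name. The spread test called 3 genes higher and 2 lower with a pseudocount of 5, 1 higher with a 1 TPM filter, 48 and 24 with no filter, 5 and 4 in A libraries alone, and 3 and 2 in B libraries alone. Leaving out a mouse gave 0 to 28 higher and 0 to 102 lower, the latter without vehicle mouse 1-4, and the cause was not tested. For the genes chosen by the naming rule, 2950 alternative values kept direction and call, 133 lost the call, 11 gained it and 0 reversed. Of the list scores' alternatives, 153 moved by less than their spread and 2 by more.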
